A study of Homo sapiens with 9 samples.

Results

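Ribosome biogenesis and nucleolar genes were followed in RNA-seq of HCT116 cells that carry a catalytic mutation of HUWE1. The group comprised 56 of the 11350 genes in the count table. It was chosen by gene symbol, every listed symbol was found, and all 56 had at least 10 counts in every library. By role, 4 genes encode box H/ACA proteins, 3 encode box C/D proteins, 4 encode abundant nucleolar proteins referred to here as the nucleolar scaffold, 16 belong to the small subunit (SSU) processome, 7 act on pre-40S particles, 15 act in 60S assembly and 7 serve RNA polymerase I (Pol I).

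HCT116 is a human colon carcinoma line. RNA came from parental HCT116 cells (HUWE1-P) and from cells edited with CRISPR at the endogenous HUWE1 gene, which encodes a large ubiquitin ligase of the HECT family. In HUWE1-CS cells the codon of the active-site cysteine encodes serine, and in HUWE1-WT cells the same edit put cysteine back. By the paper's methods, the repair template of both lines also carried a blasticidin resistance gene. Clones were selected with puromycin and blasticidin, so both edited lines differ from HUWE1-P cells by more than this codon. Each of the 3 lines was represented by 3 biological replicates. No treatment was given in the labels. Whether the libraries of an edited line came from 1 clone or from several is not given in the sources used here, so that an effect of the serine exchange and a difference between clones cannot be told apart.

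The eukaryotic ribosome is assembled in the nucleolus. Pol I transcribes the precursor of the large rRNAs, small nucleolar RNPs (snoRNPs) guide its chemical modification, and the SSU processome and the 60S assembly factors fold and cut it while ribosomal proteins join. Box C/D snoRNPs direct methylation of ribose and box H/ACA snoRNPs direct pseudouridylation. MYC is a known activator of many of these genes, and colon carcinoma cells often have high MYC and enlarged nucleoli. Polyadenylated RNA was sequenced here, so the values below are mRNA levels of the factors, and neither rRNA nor snoRNA was measured.

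The 9 libraries held between 1610984 and 2060349 counts. Levels are given as CPM, which are counts scaled by library size after TMM normalization, and 3 counts corresponded to between 1.46 and 1.86 CPM. Members had a median of 247.5 counts per library, from 13 counts for PPAN to 4585 counts for NCL. HUWE1 mRNA itself, the targeted gene, had 561, 545 and 522 CPM in HUWE1-P, 498, 453 and 455 CPM in HUWE1-WT and 345, 323 and 339 CPM in HUWE1-CS libraries. The lines were in separate ranges, and these counts do not read the exchanged codon. By edgeR's quasi-likelihood test, the log2 fold change of HUWE1-WT against HUWE1-P cells was -0.21, with an adjusted p of 0.354. That of HUWE1-CS against HUWE1-P cells was -0.69, with an adjusted p of 1.06e-15 by the same test. With a trend with transcript length removed, the values were -0.11 and -0.49. Of 8 epithelial and colonic markers 6 were in the table (EPCAM, CDH1, KRT8, KRT18, KRT19 and CDX2, and not VIL1 or LGALS4), and of 8 markers of blood, endothelium and fibroblasts COL1A1 was the only one, with at most 47 counts in a library.

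The first question was how the mRNAs of ribosome biogenesis factors differed in HUWE1-CS cells from those in parental cells. In HUWE1-CS against HUWE1-P cells, 17 of the 56 genes fell and 2 rose. They were called by edgeR's quasi-likelihood test at a Benjamini-Hochberg adjusted p of at most 0.01 over all genes of the table. Of all genes, 8.58% fell and 8.46% rose, 17.0% in sum, so that 30.4% of the members against 8.58% of the table fell. The largest decreases were those of RRP12, a pre-40S export and processing factor, and of UTP20, a large scaffold of the SSU processome. The 2 genes that rose were NHP2, a core protein of box H/ACA snoRNPs, and RRN3, the initiation factor that brings Pol I to the promoter of the rRNA genes. The median log2 fold change was -0.17 over the 56 genes and -0.0072 over all genes. Of the 56 values 41 were negative, beside 5778 of the 11350 values of all genes. In these bulk samples, fewer cells with a given mRNA and less of it in each cell cannot be told apart. CPM are relative to each library, so amounts of RNA per cell were not measured.

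The changes were modest in size. With a minimum size of 0.5 on the log2 scale as a further condition, 7 members (RRP12, UTP20, POLR1E, DDX10, NOP16, HEATR1 and NHP2) remained, beside 10.1% of all genes. Of the 37 members that were not called, 32 had a 95% interval of the log2 fold change that lay within 0.5 of 0. The other 5, UTP15, MPHOSPH10, NOC4L, PNO1 and PPAN, had intervals that reached beyond that limit, and the interval of PPAN extended by 0.59 to either side. Of the 37 intervals, 9 lay wholly below 0 and 1 wholly above it, so members that were not called need not be unchanged. Some called members, such as NPM1 (-0.25), changed by less than 0.5.

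Against HUWE1-WT cells, the line that underwent the same editing, 11 of the 56 genes fell and 1 rose in HUWE1-CS cells. Of all genes, 8.08% fell and 7.42% rose (15.5% in sum). The median log2 fold change was -0.12, beside -0.00059 over all genes. Of the 56 values 38 were negative, beside 5680 of the 11350 values of all genes. All 12 of these genes were also called in the same direction against HUWE1-P cells. The 11 that fell against both controls were NPM1, DDX21, HEATR1, UTP20, RRP9, RRP12, NOP16, BOP1, MRTO4, DDX18 and POLR1E, and the gene that rose against both was NHP2. Of all genes, 6.22% fell and 6.01% rose against both controls. Both comparisons use the same HUWE1-CS libraries. With a log2 fold change of at least 0.5 required, 3 members were called against HUWE1-WT cells, beside 9.37% of all genes.

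HUWE1-WT and HUWE1-P cells differed little for these genes. None of the 56 was called between these lines by edgeR, and the counts by DESeq2 and limma-voom were 0 as well. Of all genes, 0.0617% were called (0.00881% higher and 0.0529% lower). At an unadjusted p under 0.05, 4 members (UTP20, PNO1, RRP1B and POLR1C, all with lower values in HUWE1-WT cells) were found, beside 5.54% of all genes. The median log2 fold change was -0.028, beside -0.0015 over all genes. Of the 56 values 37 were negative, beside 5724 of the 11350 values of all genes, so that negative signs also prevailed between these 2 control lines. In 5 members all HUWE1-WT libraries lay below all HUWE1-P libraries, and in 3 members above them, beside 5.31% and 5.40% of all genes.

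The 3 HUWE1-CS libraries lay below all 6 control libraries in 22 of the 56 members and above them in 2 members, compared with 13.4% and 12.9% of all genes. Of the 17 genes that fell against HUWE1-P cells, 16 were among these 22, the exception being RRP1B. In 16 of the 17, the mean of HUWE1-WT cells lay between those of HUWE1-P and HUWE1-CS cells. The exception was BOP1, whose HUWE1-WT mean was the highest. Of the 974 genes of the whole table that fell, 849 lay below all 6 control libraries. In 644 of the 974 the HUWE1-WT mean lay between those of HUWE1-P and HUWE1-CS cells. Choosing genes for a fall against HUWE1-P cells favours both patterns. The summed level of all 56 members was between 13080 and 13548 CPM in HUWE1-P, between 12816 and 13394 CPM in HUWE1-WT and between 12032 and 12465 CPM in HUWE1-CS libraries.

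**Figure D1:**
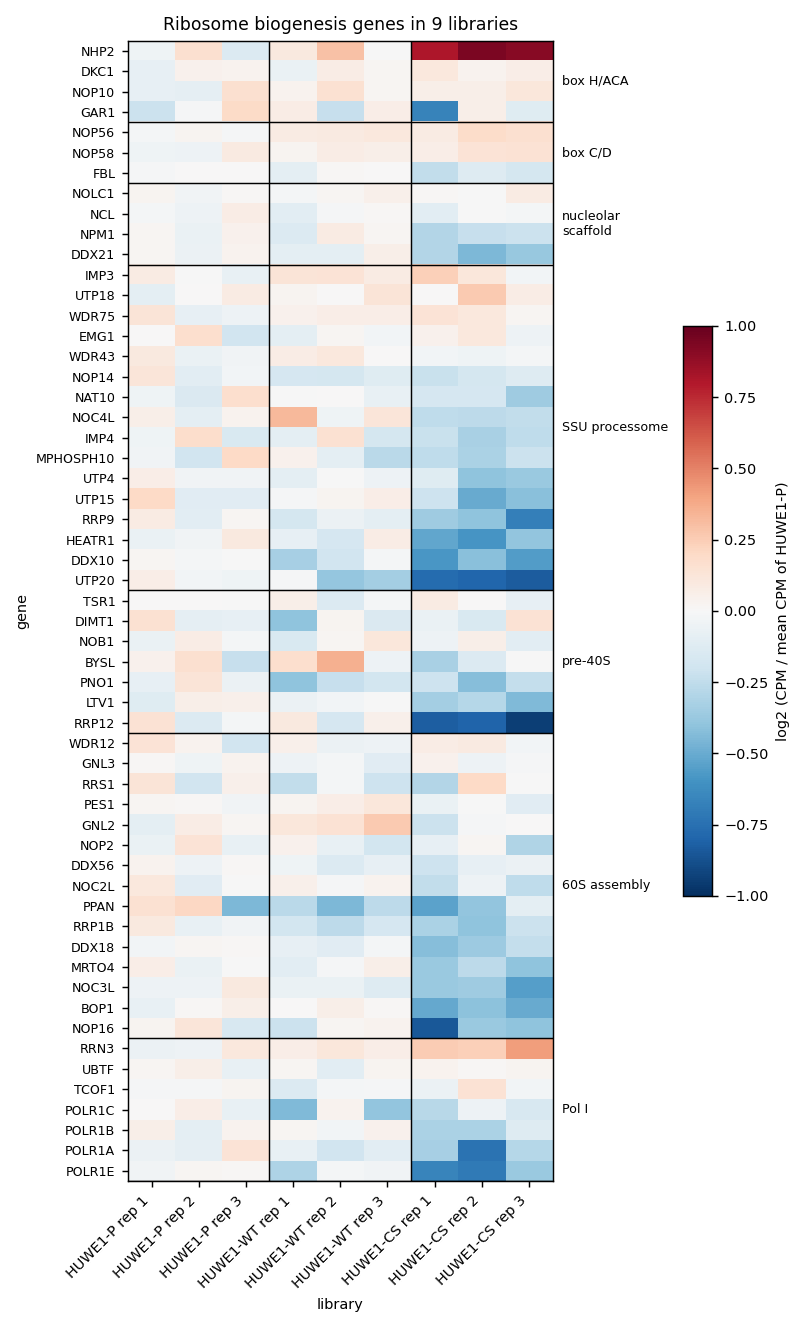
Level of each of the 56 genes (vertical axis, grouped by role) in each of the 9 libraries (horizontal axis), coloured by the log2 ratio of its CPM to the mean CPM of the 3 HUWE1-P libraries. Blue is lower and red is higher, and in the 3 HUWE1-CS columns on the right RRP12 and UTP20 are dark blue throughout, NOP16 is as dark in replicate 1, and NHP2 is the darkest red.

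Promoter sequence was read for the 46 members found in a RefSeq table of promoters (GRCh38.p14, 250 bases before to 50 bases after the transcription start). CACGTG, the E-box to which MYC and its partner MAX bind, reads the same on both strands. It was present in the promoters of 18 of the 46 members, or 39.1% (Wilson 95% interval 26.4% to 53.5%), in 25.3% of 91 promoters of other ribosome biogenesis genes, in 10.6% of 9041 promoters of genes in the count table and in 7.43% of all 27305 promoters. Among members with a promoter sequence, 6 of 12 that fell against HUWE1-P cells, 0 of 2 that rose and 12 of 32 that were not called held CACGTG. The Wilson 95% intervals, in the same order, were 25.4% to 74.6%, 0% to 65.8% and 22.9% to 54.7%. These intervals treat promoters as independent draws, which a chosen list is not, and the differences were not tested. The members belong to a function that MYC is known to activate, so their share beside that of other genes is a description only. HEATR1, POLR1A, NPM1, NOP16, DDX21 and DDX10 fell without CACGTG in this window, and their promoters are not shown. The promoters of UTP20 (chr12:101279855-101280154, plus strand) and RRP9 (chr3:51941855-51942154, minus strand) are shown as genes that fell and hold CACGTG, in capitals, and those of NHP2 (chr5:178153836-178154135, minus strand) and RRN3 (chr16:15094286-15094585, minus strand) as the genes that rose and do not hold CACGTG. The related letters CACGCG, or CGCGTG as read on the other strand, were allowed as well in a wider search, which both of these promoters met. Each is written 5′ to 3′ on the strand of the gene.
UTP20: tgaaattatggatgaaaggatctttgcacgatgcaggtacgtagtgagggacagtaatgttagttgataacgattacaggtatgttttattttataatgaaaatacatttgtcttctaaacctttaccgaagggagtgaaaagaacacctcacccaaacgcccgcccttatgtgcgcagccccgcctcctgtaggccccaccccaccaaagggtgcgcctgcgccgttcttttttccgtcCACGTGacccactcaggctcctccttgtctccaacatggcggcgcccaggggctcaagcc
RRP9: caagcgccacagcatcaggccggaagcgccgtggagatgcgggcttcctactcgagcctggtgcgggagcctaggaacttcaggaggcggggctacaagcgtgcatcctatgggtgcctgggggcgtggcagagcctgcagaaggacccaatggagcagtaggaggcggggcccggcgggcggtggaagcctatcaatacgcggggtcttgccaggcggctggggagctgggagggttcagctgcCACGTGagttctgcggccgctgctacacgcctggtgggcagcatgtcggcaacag
NHP2: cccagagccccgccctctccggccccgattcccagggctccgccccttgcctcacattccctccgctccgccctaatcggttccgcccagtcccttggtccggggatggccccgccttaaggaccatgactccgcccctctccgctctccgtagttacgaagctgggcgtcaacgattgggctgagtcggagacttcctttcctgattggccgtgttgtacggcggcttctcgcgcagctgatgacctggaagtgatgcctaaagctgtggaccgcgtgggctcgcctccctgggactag
RRN3: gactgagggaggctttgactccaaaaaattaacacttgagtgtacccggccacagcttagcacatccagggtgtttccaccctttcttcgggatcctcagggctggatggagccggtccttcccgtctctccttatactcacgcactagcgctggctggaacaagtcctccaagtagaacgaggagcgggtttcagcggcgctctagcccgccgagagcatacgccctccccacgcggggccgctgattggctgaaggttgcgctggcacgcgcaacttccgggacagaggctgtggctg
The first base of CACGTG lay 10 bases before the start in UTP20 and 5 bases before it in RRP9. The presence of these letters is a description of the window, and binding was not measured in these libraries.

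The box H/ACA proteins form the core that turns uridine into pseudouridine in rRNA. Of the 4, NHP2 rose and the other 3 were not called. NHP2 (Entrez 55651, chr5:177576464-177580895 on GRCh37, minus strand) had 163, 187 and 153 CPM in HUWE1-P, 180, 206 and 167 CPM in HUWE1-WT and 293, 322 and 315 CPM in HUWE1-CS libraries. Every HUWE1-CS library was well above every control library. NHP2 rose with a log2 fold change of 0.89 ± 0.077 (SE) against HUWE1-P cells (1.85-fold, edgeR adjusted p = 1.85e-17) and 0.75 ± 0.076 against HUWE1-WT cells (1.68-fold, edgeR adjusted p = 5.18e-14).

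DKC1, the pseudouridine synthase dyskerin, had 204, 222 and 222 CPM in HUWE1-P, 206, 228 and 219 CPM in HUWE1-WT and 233, 222 and 226 CPM in HUWE1-CS libraries. NOP10, a small protein that binds dyskerin, had 70.8, 70.2 and 83.4 CPM in HUWE1-P, 76.5, 82.9 and 75.6 CPM in HUWE1-WT and 77.7, 77.7 and 80.7 CPM in HUWE1-CS libraries. GAR1, the subunit needed for full activity, had 54.6, 62.9 and 72.3 CPM in HUWE1-P, 66.6, 54.0 and 66.3 CPM in HUWE1-WT and 39.8, 65.8 and 58.1 CPM in HUWE1-CS libraries. The lines overlapped for all 3 genes, and the low HUWE1-CS library of GAR1 gave the widest relative spread of any member in that line, a coefficient of variation of 24.5%. Against HUWE1-P cells, the 95% interval of the log2 fold change was -0.080 to 0.21 for DKC1, -0.16 to 0.29 for NOP10 and -0.49 to 0.043 for GAR1. The mRNAs for the proteins of 1 complex thus had unlike values, with the interval for NHP2 (0.74 to 1.04) above those of its partners.

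The box C/D proteins carry the ribose methyltransferase. None of the 3 was called in any comparison. FBL, fibrillarin, the methyltransferase itself, had 344, 348 and 348 CPM in HUWE1-P, 324, 350 and 348 CPM in HUWE1-WT and 292, 318 and 307 CPM in HUWE1-CS libraries. NOP56 had 405, 419 and 407 CPM in HUWE1-P, 434, 436 and 442 CPM in HUWE1-WT and 434, 467 and 459 CPM in HUWE1-CS libraries. NOP58, its paralog in the core, had 204, 203 and 224 CPM in HUWE1-P, 214, 221 and 219 CPM in HUWE1-WT and 220, 231 and 232 CPM in HUWE1-CS libraries. The HUWE1-CS libraries lay below all controls for FBL, whereas for NOP58 they overlapped both controls and for NOP56 they lay above HUWE1-P and overlapped HUWE1-WT libraries. The log2 fold changes against HUWE1-P cells were -0.18 for FBL (edgeR adjusted p = 0.0344), 0.14 for NOP56 (adjusted p = 0.0849) and 0.11 for NOP58 (adjusted p = 0.280).

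**Figure D2:**
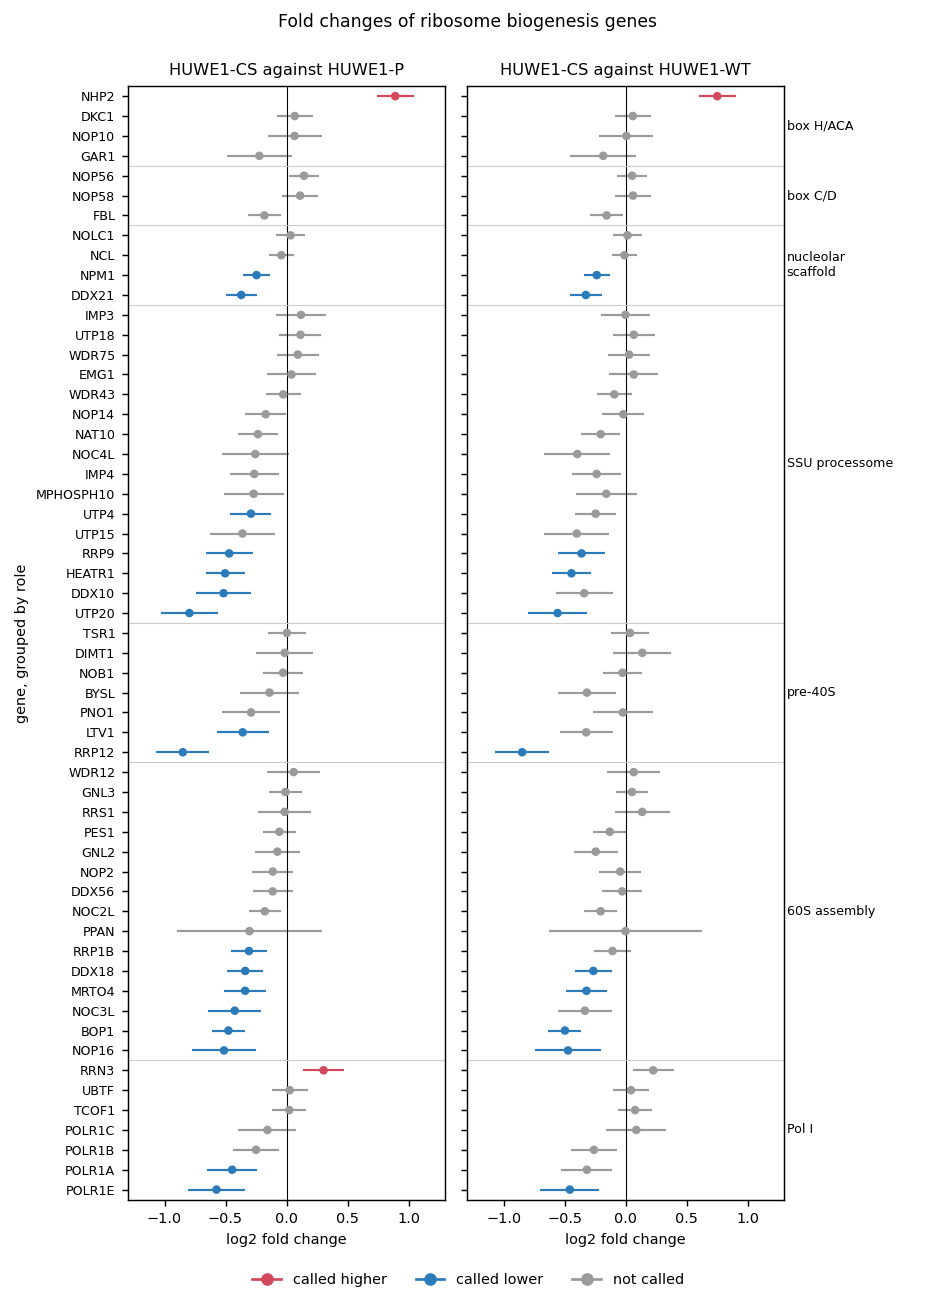
Log2 fold change (horizontal axes) of each of the 56 genes (vertical axis, grouped by role) in HUWE1-CS against HUWE1-P cells (left) and against HUWE1-WT cells (right), as a point with its 95% interval. Blue genes fell (17 left, 11 right), red genes rose (2 left, 1 right) and grey genes were not called.

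In the nucleolar scaffold, NPM1 and DDX21 fell against both controls, and NCL and NOLC1 were not called. DDX21, an RNA helicase linked to Pol I transcription and rRNA processing, had 522, 493 and 528 CPM in HUWE1-P, 480, 481 and 537 CPM in HUWE1-WT and 421, 378 and 395 CPM in HUWE1-CS libraries. No HUWE1-CS library reached the lowest control. It fell with a log2 fold change of -0.37 ± 0.065 (SE) against HUWE1-P cells (edgeR adjusted p = 2.55e-06) and -0.33 ± 0.065 against HUWE1-WT cells (edgeR adjusted p = 4.27e-05). NPM1, nucleophosmin, a chaperone of the granular part of the nucleolus, fell by 15.7% against HUWE1-P cells (edgeR adjusted p = 0.000227) and fell by 15.2% against HUWE1-WT cells (edgeR adjusted p = 0.000425). NOLC1, a chaperone of snoRNPs, had 736, 706 and 728 CPM in HUWE1-P, 713, 735 and 751 CPM in HUWE1-WT and 730, 723 and 768 CPM in HUWE1-CS libraries, so that the lines overlapped. NCL, nucleolin, was the member with the most counts, and its 95% interval against HUWE1-P cells was narrow, from -0.15 to 0.062 on the log2 scale.

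The SSU processome assembles on the nascent rRNA precursor. Of its 16 members, 5 fell against HUWE1-P cells (UTP4, HEATR1, UTP20, RRP9 and DDX10), 3 of these fell against HUWE1-WT cells (HEATR1, UTP20 and RRP9), and 0 rose. The median log2 fold change was -0.26 against HUWE1-P and -0.22 against HUWE1-WT cells, and 12 of 16 values were negative against HUWE1-P cells. In HUWE1-WT against HUWE1-P cells, 10 of 16 were negative. UTP20 (Entrez 27340, chr12:101673883-101780396 on GRCh37, plus strand) had 98.7, 92.6 and 91.5 CPM in HUWE1-P, 93.3, 72.0 and 74.4 CPM in HUWE1-WT and 55.2, 54.4 and 52.8 CPM in HUWE1-CS libraries. The HUWE1-CS libraries agreed closely with each other and lay below all controls, and the HUWE1-WT libraries were split, with 1 at the HUWE1-P level and the other two below it. UTP20 fell with a log2 fold change of -0.80 ± 0.12 (SE) against HUWE1-P cells (edgeR adjusted p = 3.15e-08) and -0.56 ± 0.12 against HUWE1-WT cells (edgeR adjusted p = 0.000177).

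Within the processome, members of the same subcomplex had unlike values. UTP4, UTP15, WDR43, WDR75 and HEATR1 belong to the subcomplex that binds the 5′ end of the precursor and is tied to Pol I transcription. HEATR1 fell (log2 fold change -0.50 against HUWE1-P and -0.44 against HUWE1-WT cells), and UTP4 fell against HUWE1-P cells (-0.29). UTP15 had -0.36 (edgeR adjusted p = 0.0345), WDR43 had -0.027 and WDR75 had 0.092 against HUWE1-P cells, and none of these 3 was called. RRP9, the protein that recognizes the U3 snoRNA, fell (-0.47 and -0.36), as did the helicase DDX10 against HUWE1-P cells (-0.52). UTP18 was the member of the processome with the smallest p among those with a higher level in HUWE1-CS cells, with 131, 140 and 148 CPM in HUWE1-P, 143, 140 and 153 CPM in HUWE1-WT and 141, 168 and 147 CPM in HUWE1-CS libraries. These values overlapped, and the edgeR adjusted p was 0.359. IMP3, IMP4 and MPHOSPH10, which bridge the U3 snoRNA and the precursor, NOP14, NOC4L, the methyltransferase EMG1 and the rRNA acetyltransferase NAT10 were not called in either comparison, with log2 fold changes between -0.27 and 0.12 against HUWE1-P and between -0.40 and 0.066 against HUWE1-WT cells.

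Of the 7 pre-40S factors, RRP12 and LTV1 fell against HUWE1-P cells, RRP12 fell against HUWE1-WT cells, and 0 rose. RRP12 (Entrez 23223, chr10:99116115-99185833 on GRCh37, minus strand) had 122, 100 and 109 CPM in HUWE1-P, 118, 98.2 and 115 CPM in HUWE1-WT and 62.3, 63.5 and 57.5 CPM in HUWE1-CS libraries. The control lines coincided, and the HUWE1-CS libraries were clearly apart from them. It fell by 44.5% against each control, a log2 fold change of -0.85 ± 0.11 (SE) against HUWE1-P cells (edgeR adjusted p = 6.64e-10) and the same change against HUWE1-WT cells (edgeR adjusted p = 9.21e-10). TSR1, a GTPase-like factor that stays on the particle until late, had 194, 194 and 193 CPM in HUWE1-P, 202, 176 and 191 CPM in HUWE1-WT and 205, 194 and 183 CPM in HUWE1-CS libraries, which overlapped. LTV1, a factor released before the particle matures, fell against HUWE1-P cells (log2 fold change -0.36, edgeR adjusted p = 0.00757). The endonuclease NOB1, its partner PNO1, the methyltransferase DIMT1 and BYSL were not called, with log2 fold changes between -0.29 and -0.015 against HUWE1-P cells.

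The 15 factors of 60S assembly had a median log2 fold change of -0.18 against HUWE1-P cells, and 14 of the 15 values were negative. In HUWE1-WT against HUWE1-P cells, 11 of the 15 were negative. NOP16, NOC3L, BOP1, RRP1B, MRTO4 and DDX18 fell against HUWE1-P cells, and NOP16, BOP1, MRTO4 and DDX18 fell against HUWE1-WT cells as well. MRTO4 holds the place of the ribosomal stalk in the precursor particle, DDX18 is an RNA helicase, and NOC3L acts in a pair with NOC2L. The log2 fold changes of the 6 against HUWE1-P cells were between -0.51 (NOP16) and -0.31 (RRP1B). NOP2, NOC2L, PES1, WDR12, RRS1, the GTPases GNL2 and GNL3, PPAN and the helicase DDX56 were not called.

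BOP1, PES1 and WDR12 form the PeBoW complex, which is needed for cleavage of the precursor of the large subunit. BOP1 had 358, 380 and 391 CPM in HUWE1-P, 377, 391 and 379 CPM in HUWE1-WT and 263, 284 and 265 CPM in HUWE1-CS libraries. All HUWE1-CS libraries were below all controls. BOP1 fell with a log2 fold change of -0.48 ± 0.068 (SE) against HUWE1-P cells (edgeR adjusted p = 1.36e-08) and -0.50 ± 0.068 against HUWE1-WT cells (edgeR adjusted p = 4.04e-09). WDR12 had 91.2, 84.7 and 72.8 CPM in HUWE1-P, 85.8, 79.6 and 80.2 CPM in HUWE1-WT and 87.2, 88.5 and 81.3 CPM in HUWE1-CS libraries, with a 95% interval of -0.16 to 0.27 against HUWE1-P cells. PES1 had means of 280 ± 5.99 CPM in HUWE1-P, 295 ± 9.24 CPM in HUWE1-WT and 269 ± 9.77 CPM in HUWE1-CS cells (mean ± SD, n = 3), and its interval was -0.20 to 0.078. WDR12 overlapped with both controls, and PES1 overlapped with HUWE1-P libraries while its HUWE1-CS libraries lay below all HUWE1-WT libraries. The intervals of both partners against HUWE1-P cells lay above that of BOP1.

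Of the 7 Pol I genes, 2 fell, 1 rose and 4 were not called against HUWE1-P cells. POLR1A, the catalytic subunit, and POLR1E, a subunit that helps to join the polymerase to its initiation factors, fell. RRN3, the initiation factor bound by that polymerase, rose. POLR1E had 81.3, 84.7 and 84.3 CPM in HUWE1-P, 67.2, 82.3 and 81.4 CPM in HUWE1-WT and 52.8, 51.0 and 64.4 CPM in HUWE1-CS libraries. The highest HUWE1-CS library was just below the lowest HUWE1-WT library. The log2 fold change was -0.57 ± 0.12 (SE) against HUWE1-P cells (edgeR adjusted p = 7.59e-05) and -0.46 ± 0.12 against HUWE1-WT cells (edgeR adjusted p = 0.0025).

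RRN3 (Entrez 54700, chr16:15153890-15188168 on GRCh37, minus strand) had 130, 131 and 146 CPM in HUWE1-P, 142, 147 and 142 CPM in HUWE1-WT and 162, 160 and 182 CPM in HUWE1-CS libraries. All 3 HUWE1-CS libraries were above all 6 controls. The log2 fold change was 0.30 ± 0.085 (SE) against HUWE1-P cells (edgeR adjusted p = 0.00394) and 0.23 ± 0.084 against HUWE1-WT cells, which did not pass the threshold (edgeR adjusted p = 0.0395). POLR1A fell by 26.6% against HUWE1-P cells (edgeR adjusted p = 0.000414) and had a log2 fold change of -0.32 against HUWE1-WT cells (edgeR adjusted p = 0.0184). POLR1B, the other large subunit, had -0.25 and -0.26 and was not called (adjusted p = 0.0430 and 0.0375 by edgeR). POLR1C, shared with RNA polymerase III, TCOF1 (treacle) and UBTF, the architectural factor of rRNA genes, were not called, with log2 fold changes between -0.16 and 0.026 against HUWE1-P cells.

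Set side by side, the share of genes that fell against HUWE1-P cells was 0 of 7 among the snoRNP proteins, 2 of 4 in the scaffold, 5 of 16 in the processome, 2 of 7 among pre-40S factors, 6 of 15 in 60S assembly and 2 of 7 in the Pol I group. The share over all genes was 8.58%, and in so small a group 0 of 7 is near it. The medians of the log2 fold change in the same order, with the snoRNP proteins divided, were 0.066 for box H/ACA, 0.11 for box C/D, -0.14, -0.26, -0.14, -0.18 and -0.16. Against HUWE1-WT cells the medians were 0.032 for box H/ACA, 0.052 for box C/D, -0.12 for the scaffold, -0.22 for the processome, -0.026 for pre-40S factors, -0.13 for 60S assembly and 0.043 for the Pol I group. The medians of HUWE1-WT against HUWE1-P cells were between -0.060 and 0.052 in all 7 groups. Medians near 0 changed sign with the processing. With the length trend removed, the box H/ACA median was -0.084 against HUWE1-P and -0.099 against HUWE1-WT cells. The Pol I median against HUWE1-WT cells was then -0.0054, while the box C/D median against HUWE1-P cells was 0.057. FBL, of the box C/D group, fell against both controls in that fit. Against HUWE1-WT cells, the pre-40S median was 0.018 without HUWE1-WT replicate 3, and the Pol I median was -0.00068 without HUWE1-WT replicate 1. These groups are small and share libraries, and the differences between groups were not tested. The roles of NOLC1, DDX21, NAT10, RRP12 and RRP1B were uncertain, and RRP12 and DDX21 are among the genes that fell. Without these genes, 14 of 51 members fell (27.5%) and 2 rose against HUWE1-P cells, with a median log2 fold change of -0.16.

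Levels per length showed how unequally the factors were expressed. In HUWE1-P cells, with CPM divided by the length of the canonical transcript in kilobases, NPM1 was the highest member with 1368 CPM per kb, followed by NCL (536), FBL (308), NHP2 (215) and NOP56 (215). The lowest were PPAN (4.85), POLR1A (9.32), WDR12 (10.3) and UTP20 (10.4). Genes that fell were thus found at both ends of this order. NHP2, the gene with the largest rise, was among the highest 4.

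MYC, which activates many of these genes, had 454, 485 and 440 CPM in HUWE1-P, 546, 476 and 507 CPM in HUWE1-WT and 432, 415 and 390 CPM in HUWE1-CS libraries. All HUWE1-CS libraries were below all controls. The log2 fold change was -0.31 ± 0.065 (SE) against HUWE1-WT cells (edgeR adjusted p = 0.000136) and -0.16 ± 0.065 against HUWE1-P cells (edgeR adjusted p = 0.0679). The MYC mRNA was thus called against HUWE1-WT and not against HUWE1-P cells. Its log2 fold change in HUWE1-WT against HUWE1-P cells was 0.15 (edgeR adjusted p = 0.823). The part of MYC in the values of the members was not tested.

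Further genes of the pathway were taken from a list of 101 ribosome biogenesis factors outside the 56, all of which were in the table. Against HUWE1-P cells 11 of them fell and 2 rose, with a median log2 fold change of -0.075. Against HUWE1-WT cells 9 fell and 2 rose, and 7 fell and 2 rose against both. The shares that fell were near those of the whole table, with 10.9% beside 8.58% against HUWE1-P and 8.91% beside 8.08% against HUWE1-WT cells, and 7 of 101 genes beside 6.22% against both. The difference from the 56 genes was not tested. The largest decrease was that of DDX54, a nucleolar helicase of 60S assembly, with 199, 175 and 176 CPM in HUWE1-P, 178, 176 and 179 CPM in HUWE1-WT and 90.2, 98.7 and 81.9 CPM in HUWE1-CS libraries. Its HUWE1-CS libraries were far below all controls, with a log2 fold change of -1.02 ± 0.091 (SE) against HUWE1-P cells (edgeR adjusted p = 8.25e-17).

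DHX37, the helicase that releases the U3 snoRNA from the processome, had a log2 fold change of -0.85 and URB2, a factor of early 60S assembly, of -0.71 against HUWE1-P cells, and both fell against both controls. The other members of this list that fell against HUWE1-P cells were PWP2, NOL6, NOL10, DDX31, EBNA1BP2, MDN1, URB1 and POLR1F. The 2 that rose were NOP53, which acts late in 60S maturation (log2 fold change 0.62 and 0.53 against HUWE1-P and HUWE1-WT cells), and EIF6, which keeps the 60S subunit from joining early (0.47 and 0.49).

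Transcript length moved with the fold change in these libraries. Across all 11114 genes with a length, the log2 fold change of HUWE1-CS against HUWE1-P cells had a Pearson correlation of -0.23 and a Spearman correlation of -0.26 with log2 length. Across the 56 members, which share the same libraries, the values were -0.30 and -0.16. Among the 28 members up to the median length of 2380.5 bases 8 fell and 1 rose, and among the 28 longer members 9 fell and 1 rose, with a median log2 fold change of -0.17 in each set. When the trend with length was removed from every library, 17 members fell and 2 rose against HUWE1-P cells, beside 8.43% and 8.19% of all genes. Of these 17, 16 had also fallen without this step, FBL was added (-0.32, edgeR adjusted p = 1.77e-05), and POLR1A no longer passed the threshold (-0.27, edgeR adjusted p = 0.0322). Against HUWE1-WT cells 16 fell and 1 rose, beside 8.12% and 7.48% of all genes, with FBL, LTV1, NOC2L, NOC4L and UTP4 added. The median against HUWE1-P cells then was -0.29 for the shorter and -0.14 for the longer members, and against HUWE1-WT cells it was -0.21 (10 fell) and -0.062 (6 fell). The log2 fold change against HUWE1-P cells then was 0.69 for NHP2, -0.65 for UTP20 and -0.80 for RRP12.

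Some members share sequence with other genes, and whether counting used strand is not given in the sources used here. Of the exonic bases of NHP2, 28.0% are also exonic in RMND5B on the opposite strand, a gene at 28.2 CPM in HUWE1-P and 35.7 CPM in HUWE1-CS cells (log2 fold change 0.34, edgeR adjusted p = 0.133). Its level was thus well below that of NHP2. HEATR1 shares 23.1% with LGALS8, which was not called (-0.63, edgeR adjusted p = 0.0237), and NOP16 shares 18.6% with opposite-strand genes that include HIGD2A, which rose (0.42, edgeR adjusted p = 0.00673) while NOP16 fell. The largest shares with opposite-strand genes were those of IMP3 (58.1%) and EMG1 (55.5%), which were not called. LTV1 shares 34.7%, PPAN shares 49.2% and NOP2 shares 54.4% of exonic bases with genes on the same strand. NPM1 has 49 named pseudogenes, MPHOSPH10 has 8, DDX18 has 5 and RRN3 has 3, so that the counts of these genes are uncertain where reads fit a copy.

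Calls by other rules were compared as well. DESeq2 at the same threshold called 11 members against HUWE1-P cells (9.59% of all genes) and 7 against HUWE1-WT cells (8.79% of all genes). At an adjusted p of at most 0.05, edgeR called 25 members against HUWE1-P cells (26.4% of all genes) and 24 against HUWE1-WT cells (24.4% of all genes). Among the 19 genes called against HUWE1-P cells, 11 were called under every alternative fit run, including each left-out library: NHP2, NPM1, DDX21, HEATR1, UTP20, RRP9, DDX10, RRP12, BOP1, DDX18 and POLR1E. The other 8 (UTP4, LTV1, NOP16, NOC3L, RRP1B, MRTO4, POLR1A and RRN3) were not called by DESeq2 and lost their call when 1 or more of the libraries were left out. Against HUWE1-WT cells, NHP2, DDX21, HEATR1, RRP12 and BOP1 were called under every alternative fit run.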

How the data were processed

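RNA-seq was analysed in 9 libraries of HCT116 cells, 3 per line, grouped into HUWE1-P, HUWE1-WT and HUWE1-CS by the sample labels. The authors trimmed adapters, mapped single-end reads to hg19 (STAR 2.5.4 and bcl2fastq 2.20 are listed in the submitters' processing notes) and deposited raw counts per gene without normalization. The counting tool, its annotation and its use of strand are not given in the sources used here. The deposited tables of the authors' own comparisons (log2 fold changes, F scores, p-values and FDR, from edgeR 3.26.8 per the labels) were not used.

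Counts of all 11350 genes were normalized by TMM and tested with edgeR 4.0.16 (R 4.3.3; glmQLFit with legacy = TRUE, glmQLFTest) in 1 model of all 9 libraries without other terms than the line. P-values were adjusted by Benjamini-Hochberg over all genes, and genes were called at an adjusted p of at most 0.01, the FDR limit of the study. SEs were derived from the log2 fold change and its F statistic, and 95% intervals from the t distribution. Library totals of 1610984 to 2060349 counts and a biological coefficient of variation of 4.77% set the precision. Pairs of replicates differed by more than sampling noise (chi-square per degree of freedom 1.16 to 1.65). P-values measure only the spread between these samples, which may be in part technical.

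The members and gene lists were chosen with earlier results of these data known. Values in every library are given for all box H/ACA and C/D members, for the member of each role with the smallest p in each direction against HUWE1-P cells, and for MYC and HUWE1, and of the other ribosome biogenesis genes the 3 called genes with the highest and the 3 with the lowest log2 fold change were to be named (2 had risen). Values of PES1, NPM1 and other named members were added to show complexes in full. PES1 and UBTF were drawn for the same purpose. Positions, lengths and overlaps came from GENCODE on GRCh37, on which 11114 genes were placed, and promoters from RefSeq (GRCh38.p14). The trend with length was removed as a lowess fit (span 0.3) per library. Scripts were tested on simulated data. Alternatives were DESeq2 1.42.0, limma-voom (limma 3.58.1), RLE size factors, library totals, at least 10 counts in every library, only the 2 lines compared, the newer edgeR estimator, a block for the replicate number, a robust fit, removal of length or GC trends, omission of each library, other thresholds, and CACGCG as a further motif.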

Additional observations from a re-analysis of the deposited data

How the results depend on the processing

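Of 1980 values of named genes under the alternatives, 46 changed sign, and none of these had been called. The number of members called was 19 against HUWE1-P cells and 12 against HUWE1-WT cells with limma-voom, RLE size factors and the replicate block. The share of all genes called is not given for these settings, nor for fits with a library left out. Counts of members under them therefore do not set the members apart from other genes. DESeq2 called 11 and 7 members, and 7 of the other ribosome biogenesis genes against HUWE1-WT cells. A log2 fold change of at least 0.5 left 7 and 3 members. An adjusted p of at most 0.05 gave 24 members against HUWE1-WT cells, and 22 and 23 of the other ribosome biogenesis genes against HUWE1-P and HUWE1-WT cells. Removal of the length trend gave 17 members against HUWE1-WT cells, with a median of -0.16 (also -0.16 with the replicate block), and turned the box H/ACA median to -0.084 against HUWE1-P and -0.099 against HUWE1-WT cells (-0.081 and -0.099 with the replicate block), while that of NHP2 stayed positive. With each library left out in turn, 14 to 19 members were called against HUWE1-P cells and 7 to 12 against HUWE1-WT cells, the 7 without HUWE1-WT replicate 2 and again without replicate 3. The box H/ACA median against HUWE1-WT cells was then 0.0050 to 0.078 (highest without HUWE1-WT replicate 2), the processome median -0.25 to -0.17 (nearest to 0 without HUWE1-WT replicate 2), and the pre-40S median against HUWE1-P cells -0.25 to -0.054 (lowest without HUWE1-P replicate 3). CACGTG or CACGCG was present in 67.4% of member promoters, 40 of 91 of those of other ribosome biogenesis genes, 27.6% of those of genes in the count table and 17.6% of all promoters, and in 10 of 12 promoters of members that fell and 2 of 2 of members that rose. Causes of these differences were not tested. Same-numbered libraries of 2 lines had small correlations, from -0.027 to 0.093. Each HUWE1-P library correlated best with the HUWE1-CS library of its own number, while in the other pairs of lines some libraries did not. Whether the replicate numbers pair the libraries was not tested. At these depths a member such as PPAN, with 13 to 23 counts, allows only wide intervals.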

Other observations

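The spread between replicates of the 56 genes was of like size in the 3 lines. The median coefficient of variation was 6.09% in HUWE1-P, 4.68% in HUWE1-WT and 5.74% in HUWE1-CS cells, and the widest values were those of PPAN (23.2%), POLR1C (19.0%) and GAR1 (24.5%). Outside the 56 genes, SBDS, which works with EIF6 in the last steps of 60S maturation, fell against HUWE1-WT cells (log2 fold change -0.47, edgeR adjusted p = 0.00172) and had -0.34 against HUWE1-P cells (edgeR adjusted p = 0.0247). SDAD1 fell against HUWE1-WT cells (-0.45, edgeR adjusted p = 0.00619) and had -0.34 against HUWE1-P cells (edgeR adjusted p = 0.0404). These 2 genes were chosen after their values were seen, as the genes of that list called against HUWE1-WT cells alone. YIPF3, on the strand opposite to POLR1C and overlapping its exons, rose against both controls (0.60 and 0.41, edgeR adjusted p = 1.94e-05 and 0.00357), while POLR1C was not called. XPO5, which overlaps POLR1C on the same opposite strand, had 149 CPM beside 74.1 CPM for POLR1C in HUWE1-P cells. It was not called against either control.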
